A study of Oryza sativa with 40 samples.

Results

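The 150 rice probe sets described here had the strongest daily rhythms among those that were highest at night in both flag leaves and seedling leaves. A probe set is a group of short DNA probes on the array that reads 1 transcript or, for some, several similar ones, and its signal is the brightness computed from those probes. Of the 57194 rice probe sets on the array, 21726 had a mean signal of at least 100 in each leaf. For each of them, log2(signal + 32) was averaged over replicates and days to the 6 clock hours 0, 4, 8, 12, 16 and 20, with the seedling arrays at 44 h left out. There were 4287 that had their highest mean at 0 or 4 h in both leaves. After the known clock genes that could be matched (all but PRR59) and the probe sets of a supplementary list of the study were set aside, 4276 remained, and the 150 with the largest value of the smaller of their 2 ranges (highest minus lowest clock-hour mean) were taken. The hour of the highest mean and the ranges therefore chose the members and are given as a description without a test.

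The samples came from Nipponbare, a japonica cultivar of rice. Flag leaves, the last leaf below the panicle, were taken from three-month-old field plants that had been moved to a greenhouse for entrainment to the light cycle, at a warmer temperature than the seedlings had. Seedling leaves were taken from 17-day-old plants raised in a greenhouse. In each leaf, 10 time points were sampled every 4 h, from 8 h on day 1, the end of the night, to 44 h on day 2, with 2 biological replicates at each, which gave 20 flag leaf and 20 seedling leaf arrays. Lights were on from 8 to 20 h and from 32 to 44 h. The leaf, the plant's age and its growth conditions differed together, so that a difference between flag and seedling leaves cannot be assigned to any of them. The clock hours 0 and 4 were each sampled in 1 night only, at 24 and 28 h, so that the members' night values rest on 2 arrays a leaf and hour.

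Plants anticipate dawn and dusk with a circadian clock, a set of transcription factors that repress and activate one another in turn over the day. Morning factors of the LHY and CCA1 type and evening factors such as PRR1 and GI pass this rhythm on to many other genes. Genes that are high at night in leaves are known to include regulators of growth and flowering time, and enzymes that use the carbon stored during the day. Light itself also switches many leaf transcripts on or off within hours of dawn.

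The array medians were between 48.8 and 64.4 in flag leaves and between 50.5 and 68.2 in seedling leaves. Replicate arrays correlated between 0.976 and 0.988 in flag leaves and between 0.962 and 0.99 in seedling leaves over all rice probe sets. Among the seedling arrays those of 40 h stood apart. Replicate 1 was lower than replicate 2 by over 1 on the log2 scale in 31 members there, against at most 2 members at any other seedling hour and 3.71% of the 21726 probe sets at 40 h. Flag leaf replicates were also far apart in many members, with replicate 1 lower by over 1 in 6 members and higher in 23 at 8 h, and lower in 10 and higher in 19 at 12 h. Over all 21726 probe sets the shares were 2.57% lower and 5.36% higher at 8 h, and 3.4% and 3.34% at 12 h. The leaf genes RBCS (Rubisco small subunit), RCA (Rubisco activase) and CAB2R (a light-harvesting protein) were bright in both leaves, with medians of 34341.2, 38390.5 and 35169.5 in flag leaves and 21627.5, 21240.7 and 27052.8 in seedling leaves for their first probe sets. Another RBCS probe set had medians of only 33.35 in flag leaves and 26.4 in seedling leaves, while the rest of RBCS had at least 2691.05. The leaf markers CAB1R, PSBO and PSAD could not be matched. Of the markers of other tissues that could be matched, OSH1 (meristem), PHT1;2 (root) and GLUA1 (endosperm) had medians between 3.15 and 52.2. NAAT1, FON1 and 1 probe set of GLUA2 were above the array medians in every array of both leaves, and their part in the results was not tested. The labels give midnight for the second and eighth time points, while the study's sampling table gives 12 and 36 h, which were used.

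Only 104 of the 150 members could be paired with a gene, 99 genes in all, and 46 had none in the annotation used. For 15 members a named function was at hand. Genes without a name are called by their LOC symbol. No sequence was available for these members and none is shown.

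Within the members, the range in flag leaves was 2.84 at the median (1.5 to 7.86) and the range in seedling leaves was 1.83 at the median (1.48 to 5.90), on the log2(signal + 32) scale. These medians correspond to a change of 7.15-fold in flag leaves and 3.56-fold in seedling leaves between the lowest and the highest clock hour. The range was larger in flag leaves for 126 members. In the other 4126 night-high probe sets it was larger in flag leaves for 78.7%. A range over 4 was found in flag leaves for 38 members and in seedling leaves for 2. At the limit of the selection, the smaller range of the last 3 members was 1.4792 (LOC4327132), 1.4764 (no gene) and 1.475 (LOC4329772), and the next 3 probe sets outside it had 1.4735 (LOC4347981), 1.4712 (LOC4347155) and 1.4697 (no gene).

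The night peak had a different hour in the 2 leaves for most members. In 76 members it was at 4 h in flag leaves and at 0 h in seedling leaves, in 28 the reverse held, in 32 it was at 4 h in both and in 14 at 0 h in both. These were 50.7%, 18.7%, 21.3% and 9.3% of the members. In the other 4126 night-high probe sets the shares were 40.8%, 23.5%, 18.4% and 17.3%. The most frequent pair of hours was thus the same, with a larger share in the members, and 0 h in both leaves was rarer in the members. The lowest hour was 12 h (77 members) or 16 h (53 members) in flag leaves for most, and in seedling leaves 16 h (62), 12 h (46) or 20 h (33). Over the 10 time points, the median member in flag leaves lay 0.78 below its own mean at 8 h, 1.08 below at 12 h and 1.11 below at 16 h, then 0.35 above at 20 h, 0.91 above at 24 h and 1.22 above at 28 h, all as differences in log2(signal + 32). In seedling leaves the median member was already 0.17 above its own mean at 8 h and reached 0.87 above it at 24 h, with 0.61 above at 28 h.

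**Figure D1:**
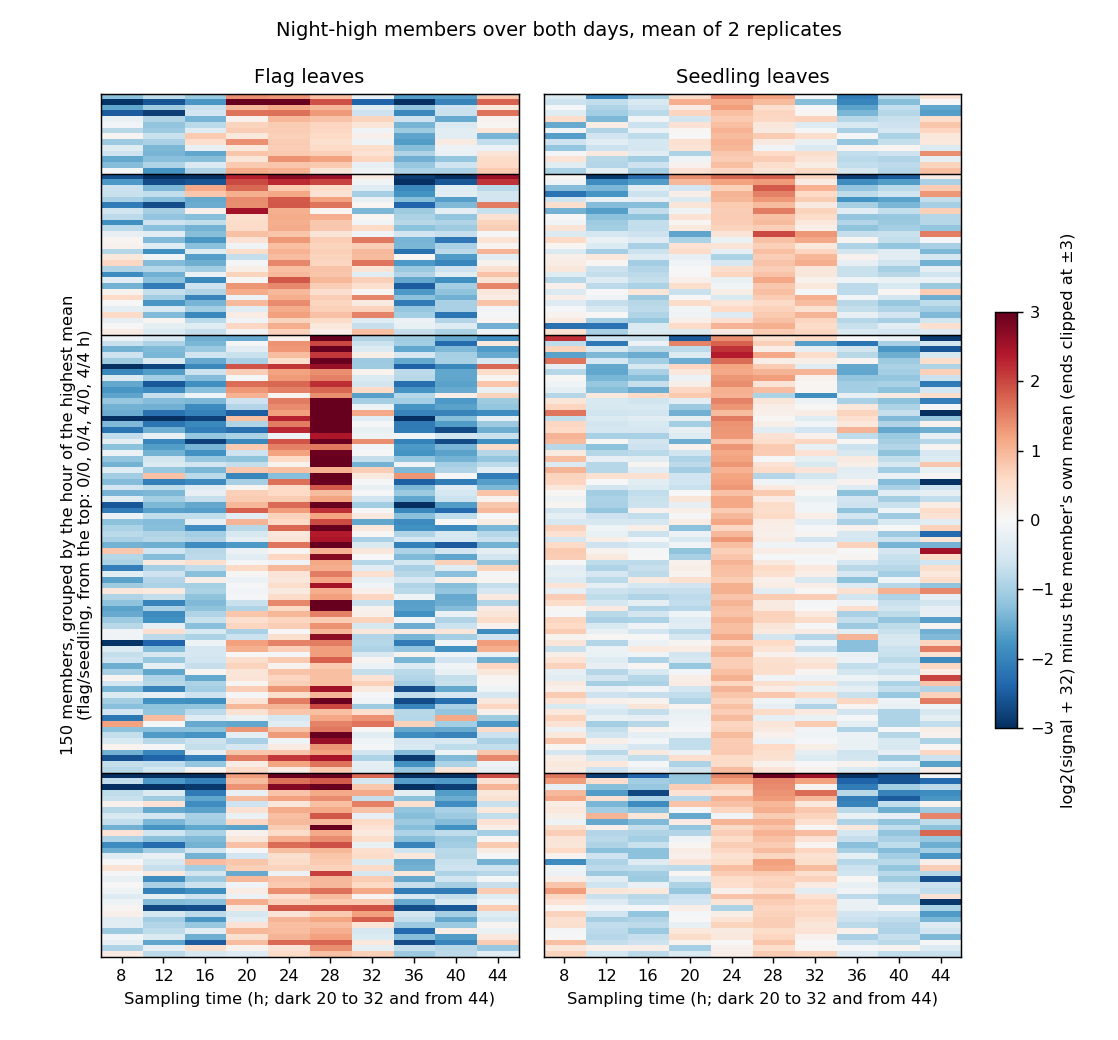
Each row is 1 of the 150 members and each column a time point, with flag leaves on the left and seedling leaves on the right, and the colour gives log2(signal + 32) minus the member's own mean over the 6 clock hours in that leaf (mean of 2 replicates, red above and blue below). Rows are grouped by the hours of the highest mean. The median member was 1.22 above its mean at 28 h in flag leaves and 0.87 above at 24 h in seedling leaves, and at 8 h it was 0.78 below in flag leaves and 0.17 above in seedling leaves.

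Every array of 24 and 28 h was above every array of 12, 16, 36 and 40 h in flag leaves for 119 members (16.1% of the 21726 probe sets) and in seedling leaves for 106 (11.1%), which the choice of the members largely fixed. The 2 replicate series of a member were correlated over the 10 time points, a measure called Cr. Its median was 0.944 in flag leaves and 0.962 in seedling leaves, and 10 members in flag leaves but 0 in seedling leaves were under 0.5.

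LOC4336779 ranked first, and is a gene without a named function here. In flag leaves its signal in the 2 replicates was 138.2 and 115.7 at 8 h, 116.4 and 105.0 at 12 h, 75.6 and 41.5 at 16 h, 3223.5 and 3120.7 at 20 h, 11067.6 and 10099.6 at 24 h, 14792.7 and 13584.5 at 28 h, 4253.0 and 4369.9 at 32 h, 73.9 and 79.0 at 36 h, 21.4 and 132.5 at 40 h and 4742.4 and 5578.1 at 44 h. In seedling leaves it was 3543.5 and 3024.2 at 8 h, 118.4 and 125.8 at 12 h, 164.8 and 191.1 at 16 h, 544.2 and 368.7 at 20 h, 3499.7 and 2599.3 at 24 h, 9464.7 and 8033.7 at 28 h, 6650.4 and 6127.0 at 32 h, 115.5 and 99.6 at 36 h, 116.4 and 183.6 at 40 h and 1077.1 and 958.2 at 44 h. In flag leaves the transcript was low at 8, 12 and 16 h and high from 20 to 32 h, whereas in seedling leaves it was low at 12 and 16 h and highest at 28 h, and it was high at both 8 and 32 h. LOC4340812, the second in rank, was already high at 20 h in both leaves, with 6800.3 and 6313.7 in flag leaves and 3466.9 and 3042.4 in seedling leaves. It had 9610.5 and 7797.0 at 24 h and 62.2 and 56.7 at 40 h in flag leaves, and 4133.6 and 3979.5 and 139.8 and 251.3 at the same hours in seedling leaves. The third in rank, a probe set without a gene, was bright in flag leaves only at 28 h (2679.6 and 4654.1, against 188.3 and 142.2 at 24 h), and in seedling leaves at 8 h (4184.6 and 4131.3) and 24 h (2327.1 and 2466.7).

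**Figure D2:**
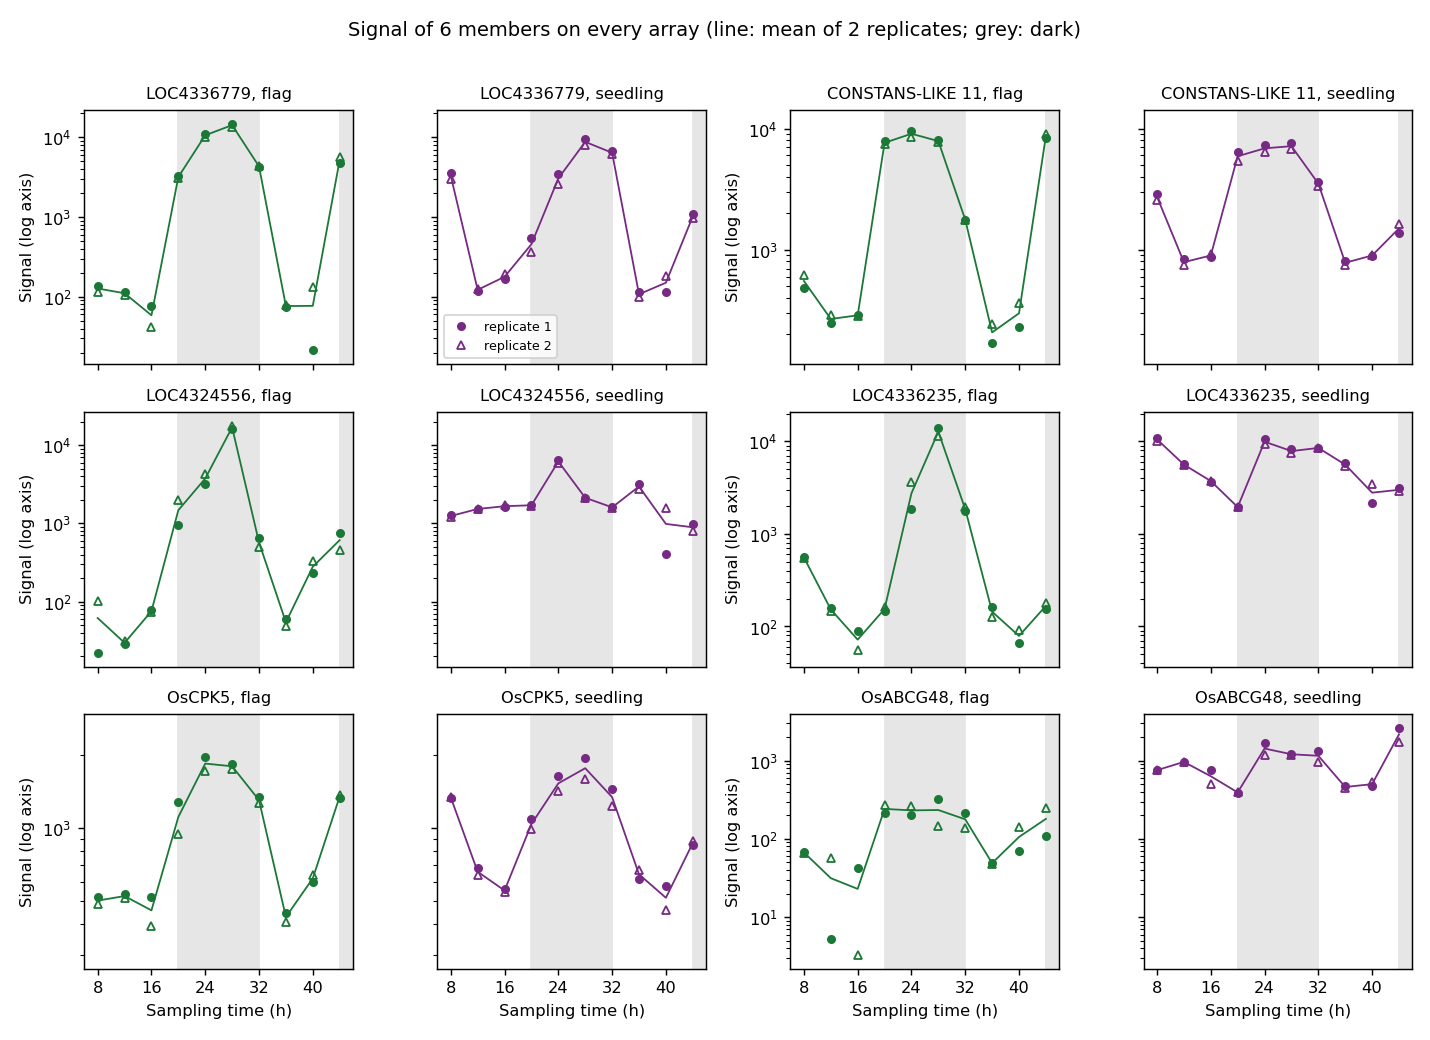
Signal (log axis) against sampling time for 6 members on every array, each with its flag leaf panel left of its seedling leaf panel. Filled circles are replicate 1, open triangles replicate 2, the line is their mean and grey marks the dark hours. LOC4336779 was at 4253.0 and 4369.9 at 32 h and 138.2 and 115.7 at 8 h in flag leaves, and OsABCG48 stayed at or under 321.8 on every flag leaf array.

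Among the members with a named function, 3 were transcription factors. CONSTANS-LIKE 11 (LOC4330574) belongs to the zinc finger family of CONSTANS, the flowering time regulator of Arabidopsis. In flag leaves it had 248.0 and 288.9 at 12 h, 7828.4 and 7414.3 at 20 h, 9540.3 and 8563.3 at 24 h and 8023.3 and 7724.0 at 28 h, and in seedling leaves 835.0 and 744.3, 6381.7 and 5422.2, 7331.5 and 6387.7 and 7525.9 and 6780.2 at the same hours. It was thus already near its night level at 20 h, when lights went off on day 1, in both leaves, with Cr of 0.996 in flag leaves and 0.998 in seedling leaves. OsbZIP08 (LOC9266109), a leucine zipper transcription factor, had its highest flag leaf values at 32 h (3940.3 and 5036.4), above those of 24 h (3478.7 and 3865.9) and 28 h (2687.6 and 2328.9), and in seedling leaves also was highest at 32 h (2954.0 and 2920.9). LOC4331843 (cap2), annotated as an EREBP factor, had a range of 2.28 in flag leaves and 2.09 in seedling leaves. LOC4348646 carries the names OsHsf-25, a heat stress factor, and ARD1, an acireductone dioxygenase, names of unrelated functions, and its signal stood out at 28 h in flag leaves (1589.9 and 1539.5, against 377.8 and 342.7 at 24 h) and at 24 h in seedling leaves (962.4 and 1009.8).

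Signalling enzymes were OsPP2C25 (LOC4330350), a type 2C protein phosphatase, OsCPK5 (LOC4330351), a calcium-dependent protein kinase, and OsIPK1 (LOC4337286), which carries the name of an inositol phosphate kinase. OsPP2C25 and OsCPK5 lie next to each other in the genome. OsCPK5 had 531.8 and 513.9 at 12 h and 1962.9 and 1720.5 at 24 h in flag leaves, and 680.7 and 636.7 at 12 h and 1629.7 and 1422.7 at 24 h in seedling leaves. OsPP2C25 had 57.2 and 94.0 at 12 h and 654.0 and 624.7 at 28 h in flag leaves, and 98.1 and 36.2 at 12 h and 346.0 and 214.2 at 28 h in seedling leaves. Both were above all their day arrays at night in both leaves. Over the 20 arrays of a leaf, which share the same light cycle, their log2 values correlated at 0.959 in flag leaves and 0.845 in seedling leaves. The members were chosen for a night peak in each leaf, which favours a high correlation, so these values are a description only. For the other adjacent pair of member genes, LOC4328841 with LOC4328842, the correlation was 0.862 in flag leaves and 0.392 in seedling leaves.

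Of the transport and membrane genes, OsABCG48 (LOC4350807) is an ABC transporter of the G subfamily, OsZIP1 (LOC4326394) a zinc transporter of the ZIP family and SCAMP6 (LOC4336849) a secretory carrier membrane protein of vesicle traffic. OsABCG48 was dim in flag leaves by day (5.3 and 57.8 at 12 h) and at night (201.3 and 260.9 at 24 h), and brighter in seedling leaves (957.7 and 964.0 at 12 h and 1654.5 and 1190.9 at 24 h). OsZIP1 had a range of 2.39 in flag leaves and 1.56 in seedling leaves, but its flag replicates were far apart at 8 h (856.6 and 225.0). SCAMP6 was 1 of the 24 members with the larger range in seedling leaves (1.81 in flag leaves and 2.19 in seedling leaves).

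Metabolic enzymes were adenine phosphoribosyltransferase 2 (LOC4336327), which salvages adenine to AMP, OsCPS4 (LOC4335090), the syn-copalyl diphosphate synthase of rice diterpenoid phytoalexins, a mitochondrial aldehyde dehydrogenase (LOC4330612) and CFBP1 (LOC4325071), named for cytosolic fructose-1,6-bisphosphatase of sucrose synthesis. Adenine phosphoribosyltransferase 2 had 8418.5 and 8659.5 at 24 h and 888.3 and 848.0 at 36 h in flag leaves, and 5253.5 and 4978.1 at 24 h and 1367.1 and 1227.4 at 36 h in seedling leaves. For OsCPS4 the flag leaf replicates disagreed (519.9 and 203.0 at 24 h, Cr 0.580), while the seedling leaf arrays of 24 and 28 h all were above 869. The supplementary annotation calls CFBP1 an inorganic pyrophosphatase instead. Its seedling values were lowest at 24 h (1292.4 and 994.5) and high at 28 h (4194.2 and 3306.6), so that in seedling leaves it met the rule through 4 h alone. OsARGOS (LOC4335949), whose relative in Arabidopsis promotes organ growth, had 948.8 and 846.6 at 28 h in flag leaves, against at most 188.5 on every other flag leaf array, and 1227.5 and 1152.1 at 24 h in seedling leaves.

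The log2 level of the members, averaged over the 6 clock hours, was mostly lower in flag leaves. These hours also chose the members, and the range was larger in flag leaves for most. A deep day trough lowers a log2 mean, so this comparison is not independent of the choice. The mean signal without logs had a median over the members of 567.5 in flag leaves and 769.7 in seedling leaves. CONSTANS-LIKE 11 had a higher mean signal in flag leaves (3661.1 against 3102.3) but a lower log2 level (-0.63). In whole leaves, fewer cells of a type and less RNA per cell cannot be told apart. With limma and Benjamini-Hochberg adjustment over the 21726 probe sets, at an adjusted p under 0.05, 33 members (22.0%) were called higher in flag leaves and 90 (60.0%) lower, against 38.2% higher and 33.5% lower over all 21726. In the other 4126 night-high probe sets 28.8% were called higher and 40.7% lower. The median difference, flag minus seedling, was -0.57 in the members and 0.04 over all probe sets (0.12 after quantile normalization).

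LOC4344557 differed most among the members with a gene. Its signal ranged from 2.6 to 622.1 with a median of 47.2 on the 20 flag leaf arrays, and from 703.4 to 3928.6 with a median of 1493.7 on the 18 seedling leaf arrays used, and the groups did not overlap. The difference was -4.04 ± 0.12 (here and below, ± is the standard error of a log2 difference, limma adjusted p = 1.47e-19). Each leaf had 2 replicate series, and the arrays of a series deviated together, while the fit took them as independent. The standard errors and p values of the level difference are therefore too small, and its size is the safer guide. The flag leaf median was under the lowest array median, so that the size of this difference depends on the added constant. LOC4344914 (-3.80 ± 0.13, limma adjusted p = 2.28e-18) and LOC4341168 (-3.32 ± 0.16, limma adjusted p = 3.45e-15) followed. Of the named genes, the mitochondrial aldehyde dehydrogenase ranged from 23.0 to 596.2 with a median of 136.2 in flag leaves and from 639.3 to 3535.4 with a median of 1542.7 in seedling leaves, a difference of -3.30 ± 0.15 (limma adjusted p = 1.62e-15). OsABCG48 (-2.42 ± 0.14, limma adjusted p = 5.01e-14) and OsARGOS (-2.32 ± 0.15, limma adjusted p = 7.91e-13) were also lower in flag leaves.

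LOC4352116 was the member with a gene that was most above its seedling level in flag leaves, with 225.3 to 4016.4 with a median of 1322.3 in flag leaves and 47.8 to 461.4 with a median of 138.2 in seedling leaves (2.79 ± 0.18, limma adjusted p = 5.13e-13). LOC4327981 (2.39 ± 0.08, limma adjusted p = 6.29e-18), LOC4339960 (1.80 ± 0.10, limma adjusted p = 4.55e-14) and CFBP1 (1.42 ± 0.14, limma adjusted p = 3.59e-09) were also higher. For OsbZIP08, OsCPK5 and OsZIP1 the difference was 0.15 ± 0.07, -0.10 ± 0.05 and 0.03 ± 0.17, and none passed the test. In flag leaves, 37 members had a lowest clock-hour mean signal under the lowest array median, 48.8, against 3 members under 50.5 in seedling leaves, and differences that low are compressed by the added constant of 32.

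**Figure D3:**
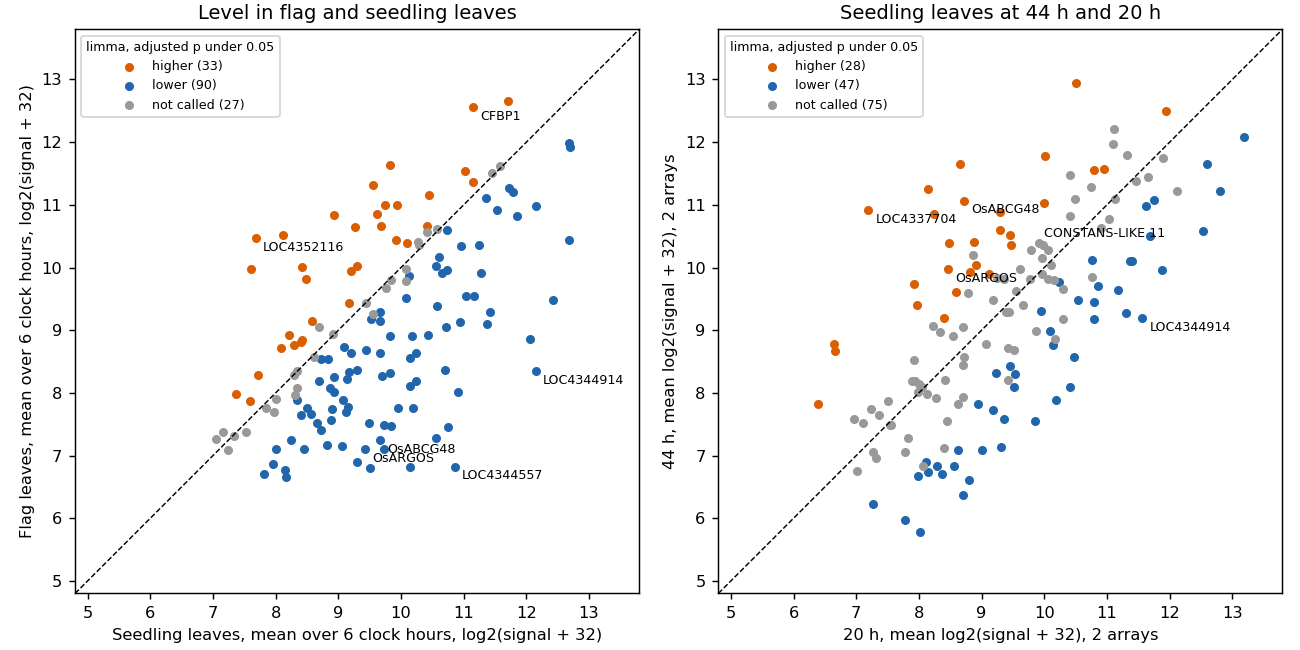
Left, mean log2(signal + 32) over the 6 clock hours in flag leaves against seedling leaves for the 150 members. Right, mean log2(signal + 32) of 2 arrays in seedling leaves at 44 h against 20 h. Orange points were called higher, blue lower and grey not called (limma, adjusted p under 0.05), and the dashed line marks equal values. In the left panel 90 members lie below the line as called lower in flag leaves and 33 above it as called higher.

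The night-minus-day change, the mean of 0 and 4 h minus the mean of 12 and 16 h, had a median of 2.17 in flag leaves and 1.32 in seedling leaves. The choice of members used these same hours and made both changes large, so this comparison is not independent of it. It did not use the sign of the difference. The rule set a limit on the smaller range only and left the larger one free, which was that of flag leaves for 126 members. Strong movement alone also makes a difference easier to call. The difference was called for 77 members as larger in flag leaves and for 5 as larger in seedling leaves (51.3% and 3.33%), against 18.1% and 16% of all 21726 probe sets, and 25.6% and 2.06% of the other 4126 night-high probe sets. Of the 77, 48 were called at a lower level in flag leaves and 15 at a higher level, against 90 and 33 of all 150 members (60.0% and 22.0%). A deeper day trough in flag leaves both enlarges the change and lowers the level, so these calls are not independent. Leaving out 1 array at a time gave 68 to 78 larger in flag leaves and 3 to 7 larger in seedling leaves, the 3 without replicate 1 of seedling 24 h, of seedling 28 h or of flag 28 h.

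LOC4324556 had the largest difference of all members. In flag leaves it had 3213.0 and 4277.6 at 24 h and 16050.8 and 17737.1 at 28 h, against 28.4 and 31 at 12 h, 77.2 and 73.6 at 16 h, 60.4 and 48.5 at 36 h and 230.2 and 328.5 at 40 h. In seedling leaves it had 6435.1 and 5929.4 at 24 h and 2130.3 and 2119.8 at 28 h, against 1538.3 and 1518.5, 1607.1 and 1708.4, 3184.2 and 2743.8 and 406.9 and 1562.0 at those day hours. The night and day arrays were wide apart in flag leaves and overlapped in seedling leaves, and the difference of the changes was 4.92 ± 0.35 (limma adjusted p = 1.26e-10). LOC4344389 (4.57 ± 0.28, limma adjusted p = 7.19e-12) and LOC4336235 (4.33 ± 0.19, limma adjusted p = 4.71e-14) came next among the members with a gene, and 3 members without a gene had 4.79, 4.46 and 4.35. LOC4336235 reached 13899.9 and 11586.0 at 28 h in flag leaves and stayed between 55.4 and 162.6 from 12 to 20 h, whereas its seedling signal did not go under 1948.5 on any array.

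Of the named genes, CONSTANS-LIKE 11 (1.84 ± 0.14, limma adjusted p = 5.67e-10), OsbZIP08 (2.03 ± 0.18, limma adjusted p = 3.36e-09), OsARGOS (2.49 ± 0.38, limma adjusted p = 1.17e-05), CFBP1 (1.69 ± 0.36, limma adjusted p = 6.52e-04) and adenine phosphoribosyltransferase 2 (1.21 ± 0.26, limma adjusted p = 5.50e-04) changed more in flag leaves. The opposite was called for LOC4326077 (-1.07 ± 0.31, limma adjusted p = 0.00855) and LOC4334495 (-0.73 ± 0.15, limma adjusted p = 3.21e-04) and for 3 members without a gene. The change left out 8 h and 20 h, where the flag leaf means of LOC4326077 and LOC4334495, in that order, were lowest. Over all clock hours, the range was larger in flag leaves for LOC4326077 (2.067 against 1.7903) and for LOC4334495 (2.4144 against 1.689). The flag leaf mean of LOC4334495 was highest at 4 h. The arrays of LOC4334495 overlapped between the leaves at 12 h, and its flag leaf arrays were the lower ones at 24 h. At 12 h it had 1497.9 and 1248.7 in flag leaves and 1260.3 and 1604.6 in seedling leaves, and at 24 h 1046.6 and 886.4 in flag leaves and 3397.1 and 2943.0 in seedling leaves. For SCAMP6, OsIPK1 and OsCPS4 the difference was -0.27 ± 0.16, 0.11 ± 0.20 and -0.34 ± 0.42, which did not pass the test.

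**Figure D4:**
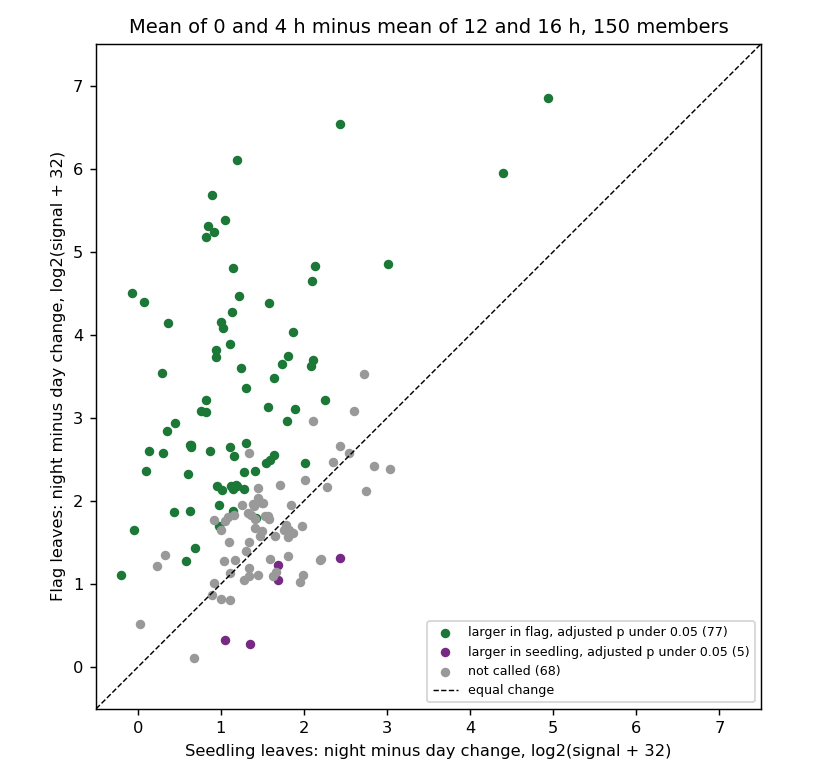
Night-minus-day change (mean of 0 and 4 h minus mean of 12 and 16 h, in log2(signal + 32)) in flag leaves against seedling leaves for the 150 members. Green points were called larger in flag leaves (77), purple larger in seedling leaves (5), grey not called (68, limma adjusted p), and the dashed line marks equal change.

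In flag leaves the median member was higher on day 2 than on day 1 at the hour when lights come on, and not at the other hours. The mean of 32, 36, 40 and 44 h was called higher than that of 8, 12, 16 and 20 h for 28 members (18.7%) and lower for 4 (2.67%) in flag leaves, against 2.02% and 1.91% of all 21726 probe sets, and 2.45% and 0.703% of the other night-high ones. With the replicate number as a block the count called lower was 7, and leaving out 1 array at a time gave 0 to 6, the 0 without replicate 1 of flag 12 h or 16 h or replicate 2 of flag 32 h. In seedling leaves, with 32, 36 and 40 h against 8, 12 and 16 h, 3 members were called higher and 3 lower (2.00% each), against 0.414% and 0.492% of all probe sets, and 8 and 6 with the block. Leaving out 1 array at a time gave 0 to 6 higher and 1 to 15 lower in seedling leaves, with 6 and 15 without seedling 40 h replicate 2. Hour by hour, the median member in flag leaves was 0.90 higher at 32 h than at 8 h, 0.17 lower at 36 h than at 12 h, 0.003 lower at 40 h than at 16 h and 0.19 lower at 44 h than at 20 h. When the 8 and 32 h arrays were left out, the members called higher on day 2 in flag leaves dropped to 2. In seedling leaves the median difference of 32 h minus 8 h was 0.05.

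The comparison of 32 h with 8 h was therefore tested, a choice made after the data were seen. In flag leaves 66 members (44%) were called higher at 32 h and 0 lower, against 8.49% and 6.09% of all 21726 probe sets, and 16.1% and 0.679% of the other night-high ones. At an unadjusted p under 0.05, limma called 84 members in either direction, against 5772 of the 21726 probe sets. In seedling leaves 5 members (3.33%) were called higher and 3 (2.00%) lower, against 0.511% and 0.483% of all probe sets, and 17 and 7 with the replicate block. Without any 1 of the 4 seedling arrays of 8 and 32 h, 0 to 1 members were called higher and 0 to 1 lower. The difference between the leaves was called for 41 members as a larger rise in flag leaves and for 2 in the other direction (27.3% and 1.33%), against 2.92% and 2.82% of all probe sets and 4.44% and 0.291% of the other night-high ones, and 6 with the block in the other direction. Leaving out 1 array at a time gave 29 to 42 and, in the other direction, 0 to 4, the 0 without any 1 of the 4 seedling arrays, flag 8 h replicate 1 or flag 32 h replicate 2, and the 4 without flag 8 h replicate 2. In flag leaves the median member was at 46.1% of its range at 32 h and at 19.2% at 8 h, while in seedling leaves the values were 65.1% at 32 h and 58.7% at 8 h. All 28 members called higher on day 2 in flag leaves were also called at 32 h against 8 h.

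**Figure D5:**
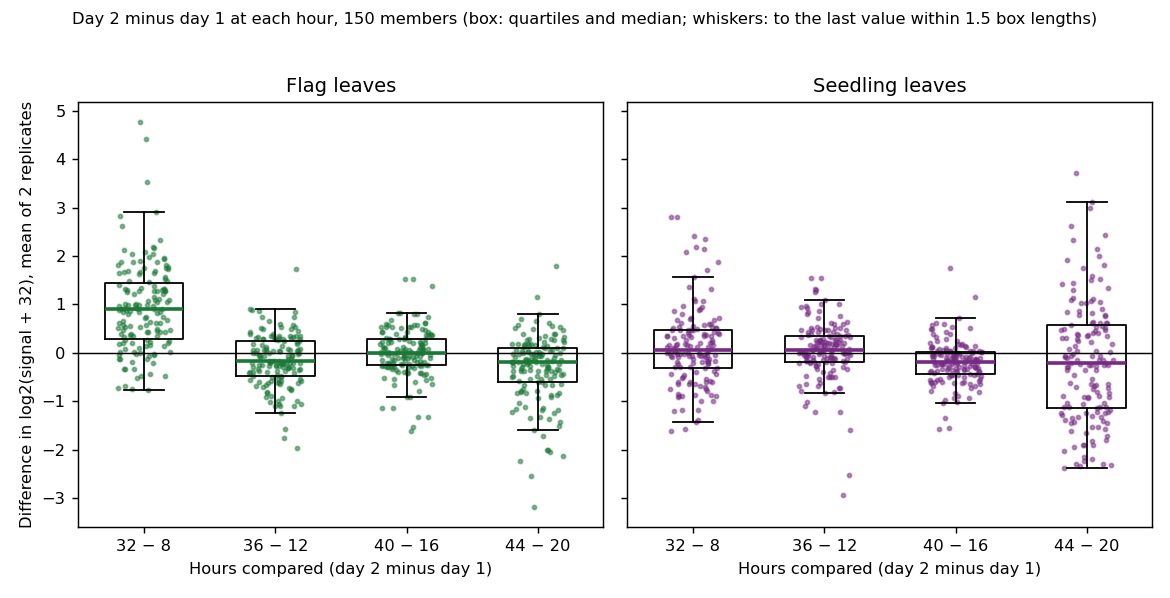
Difference in log2(signal + 32) between day 2 and day 1 at each of 4 hours, 1 point a member (mean of 2 replicates), with flag leaves left of seedling leaves. Boxes give quartiles and median. The flag leaf median was 0.90 at 32 minus 8 h and between -0.19 and -0.003 at the other hours, and the seedling leaf medians were between -0.21 and 0.06.

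In LOC4336779 the flag leaf signal was 4253.0 and 4369.9 at 32 h, against 138.2 and 115.7 at 8 h, a difference of 4.78 ± 0.30 (limma adjusted p = 1.08e-10). In seedling leaves it was 6650.4 and 6127.0 at 32 h, against 3543.5 and 3024.2 at 8 h (0.96 ± 0.30, limma adjusted p = 0.144). The difference between the leaves was 3.82 ± 0.43 (limma adjusted p = 5.41e-06). LOC4330144 had 921.1 and 734.4 at 32 h, against 4.9 and 10.9 at 8 h in flag leaves (4.42 ± 0.30, limma adjusted p = 3.76e-10), where the 8 h arrays were far below the array median and the size of the difference depends on the added constant. In seedling leaves it had 1326.6 and 1564.4 at 32 h, against 897.9 and 1414.4 at 8 h (0.34 ± 0.30, limma adjusted p = 0.761).

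In flag leaves CONSTANS-LIKE 11 was at 1771.1 and 1769.2 at 32 h, against 485.6 and 619.3 at 8 h (1.63 ± 0.17, limma adjusted p = 3.09e-07). SCAMP6 was at 4022.6 and 3416.8 at 32 h, against 948.1 and 881.2 at 8 h (1.98 ± 0.18, limma adjusted p = 5.31e-08). OsCPK5 was at 1336.6 and 1266.6 at 32 h, against 517.0 and 484.6 at 8 h (1.32 ± 0.15, limma adjusted p = 1.10e-06). The groups did not overlap in any of these 3. In flag leaves, both 32 h arrays lay above both 8 h arrays in 101 members and below them in 4. Over all probe sets the shares were 25.4% and 21.7%, so this separation alone says little. In seedling leaves the same difference was 0.36 ± 0.17 for CONSTANS-LIKE 11, 0.04 ± 0.18 for SCAMP6 and -0.0013 ± 0.15 for OsCPK5, none of which passed the test, and the difference between the leaves did for all 3 (limma adjusted p = 0.00176, 4.36e-05 and 3.28e-04). OsbZIP08 (1.49 ± 0.21, limma adjusted p = 2.08e-05) and OsPP2C25 (1.47 ± 0.35, limma adjusted p = 0.00568) were called in flag leaves, but not their difference between the leaves (adjusted p = 0.0507 and 0.104). OsIPK1 (1.07 ± 0.23, limma adjusted p = 0.00233) and adenine phosphoribosyltransferase 2 (1.15 ± 0.29, limma adjusted p = 0.00944) were also called, and both calls were lost without flag 32 h replicate 1 or without flag 8 h replicate 2, with adjusted p up to 0.0698 for OsIPK1 and 0.22 for adenine phosphoribosyltransferase 2.

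Other members went their own way at these hours. LOC4337987 had 1811.0 and 472.1 at 32 h and 146.3 and 7.3 at 8 h in flag leaves, so that its difference of 3.53 ± 0.57 (limma adjusted p = 1.38e-04) came with replicates that were far apart at both hours, and Cr was 0.495. LOC4335067 fell in seedling leaves, to 225.2 and 200 at 32 h, against 714.8 and 674.1 at 8 h (-1.57 ± 0.26, limma adjusted p = 0.00325), and rose in flag leaves (1.27 ± 0.26, limma adjusted p = 0.0016). The seedling call was lost without seedling 8 h replicate 1 or seedling 32 h replicate 2 (adjusted p up to 0.0638), and the flag call without flag 32 h replicate 2 (0.0672), while the difference between the leaves stayed called (2.84 ± 0.37). LOC4342317 (2.81 ± 0.62, limma adjusted p = 0.0249), OsCPS4 (2.18 ± 0.49, limma adjusted p = 0.0271) and LOC4326490 (1.06 ± 0.21, limma adjusted p = 0.0113) were called higher in seedling leaves at 32 h, and each call was lost when any 1 of the 4 arrays of 8 and 32 h was left out, with adjusted p up to 0.195, 0.216 and 0.192.

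On day 2 as a whole, LOC4326518 (-1.32 ± 0.33, limma adjusted p = 0.0225), LOC4352852 (-1.12 ± 0.29, limma adjusted p = 0.0257) and OsCPS4 (-0.92 ± 0.24, limma adjusted p = 0.0307) were lower in flag leaves. These 3 calls were lost without any 1 of 6, 7 and 8 of the 16 arrays, with adjusted p up to 0.0786, 0.0773 and 0.102. Besides its member probe sets, LOC4328841 had another, not a member, that was highest at 20 h in seedling leaves. In seedling leaves both member probe sets of this gene were called lower on day 2 (-1.51 ± 0.33 and -1.43 ± 0.29, limma adjusted p = 0.0254 and 0.0177). Their 40 h replicates were far apart (50.8 and 712.7 for the first), but the 36 h arrays were low in both replicates (272.3 and 230.6 at 36 h, against 2367.8 and 1892.9 at 12 h). These calls were lost without any 1 of 11 and 8 of the 12 arrays (adjusted p up to 0.0867 and 0.065). LOC4335067 (-0.94 ± 0.15, limma adjusted p = 0.0037) kept its call without any 1 array.

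At the second dusk in seedling leaves, 44 h, members were at other levels than at the first, 20 h. At 44 h 28 members (18.7%) were called higher and 47 (31.3%) lower, against 11.2% and 19.6% of all 21726 probe sets, and 12.3% and 14.5% of the other night-high ones. In seedling leaves the arrays at 44 h had no part in the clock-hour means that chose the members, whereas those of 20 h did. The median member was at 28.3% of its range at 44 h and at 42.5% at 20 h. In flag leaves the values were 51.6% at 44 h and 63.3% at 20 h, as a description. For 12 members the 44 h mean lay above the highest clock-hour mean.

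LOC4337704 rose most, to 1751.0 and 2058.3 at 44 h, against 113.8 and 115.0 at 20 h (3.72 ± 0.28, limma adjusted p = 3.26e-09). In flag leaves it had 114.6 and 151.0 at 44 h and 154.2 and 136.0 at 20 h. LOC4335526 (3.12 ± 0.49, limma adjusted p = 3.62e-05), LOC4326000 (3.00 ± 0.37, limma adjusted p = 1.70e-06) and OsABCG48 (2.34 ± 0.39, limma adjusted p = 8.99e-05) were also higher. OsABCG48 had 2600.5 and 1719.6 at 44 h, against 388.7 and 394.8 at 20 h, above its 24 h arrays (1654.5 and 1190.9) as well. OsARGOS was called higher (1.51 ± 0.44, limma adjusted p = 0.0106), but not without seedling 44 h replicate 1 or seedling 20 h replicate 2 (adjusted p up to 0.0758).

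Among those that fell, CONSTANS-LIKE 11 had 1377.3 and 1623.6 at 44 h, against 6381.7 and 5422.2 at 20 h (-1.95 ± 0.17, limma adjusted p = 1.28e-08), whereas in flag leaves it had 8401.1 and 8955.8 at 44 h and 7828.4 and 7414.3 at 20 h. SCAMP6 fell to 1171.8 and 983.0 at 44 h, against 2646.9 and 2552.5 at 20 h (-1.25 ± 0.18, limma adjusted p = 1.47e-05). LOC4344914 (-2.38 ± 0.37, limma adjusted p = 3.41e-05), LOC4345109 (-2.31 ± 0.19, limma adjusted p = 6.67e-09) and LOC4350731 (-2.29 ± 0.23, limma adjusted p = 1.11e-07) fell most among the members with a gene. LOC4345109 had 245.2 and 237.5 at 44 h, against 1308.0 and 1343.2 at 20 h, and 2698.0 and 2305.4 at 44 h, against 2632.6 and 2371.6 at 20 h in flag leaves. In the flag leaves the 20 and 44 h arrays of this gene overlapped.

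The flag leaf replicates of some members were out of step in the night. In 26 members the 24 h value was above the 28 h value in replicate 1 and below it in replicate 2, and in 10 members the reverse held, while in seedling leaves the counts were 12 and 9. The share over all probe sets was not counted, so these counts may not be particular to the members. The first of these patterns was seen in 7 of the 10 members with a flag leaf Cr under 0.5. A low Cr is itself a disagreement of the replicates, so this is a description only. LOC4326518 had 2725.3 and 689.3 at 24 h and 821.2 and 3188.2 at 28 h in flag leaves, and 3352.8 and 3968.5 at 24 h and 5843.8 and 5725.9 at 28 h in seedling leaves. LOC4342317 had 1403.9 and 200.5 at 24 h and 178.5 and 545.9 at 28 h in flag leaves, and 3620.4 and 4125.1 and 4829.3 and 6204.1 at the same hours in seedling leaves. In both genes the seedling replicates were close, while the flag leaf replicates differed in which night hour was higher.

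Other probe sets of the member genes did not always share the rhythm. Of 22 such probe sets from 17 genes, 15 passed the limit on the mean signal, and 6 of those were highest at 0 or 4 h in both leaves, against 19.7% of all 21726 probe sets. The second probe set of CFBP1 was highest at 8 h in flag leaves and 4 h in seedling leaves, and that of LOC4348646 (OsHsf-25) at 12 h in flag leaves and 4 h in seedling leaves. Another probe set of LOC4336235 and 2 of LOC4335067 that passed the limit were highest at 0 or 4 h in flag leaves and at 8 h in seedling leaves. Of the direct neighbours of the member genes, 78 were measured and not members themselves, and 24 of them (30.8%) were highest at 0 or 4 h in both leaves, against 20.3% of 13005 genes with 1 probe set each and 22.9% of the neighbours of the other night-high genes. There were 7 pairs of member genes with at most 4 genes between them, of which LOC4328841 with LOC4328842 and OsPP2C25 with OsCPK5 were adjacent.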

How the data were processed

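Gene expression was measured on 40 Affymetrix Rice Genome arrays, 20 of flag leaves and 20 of seedling leaves. The deposited values are linear intensities, 1 for each probe set and array, that the authors computed with the GCOS software and scaled to a target of 500. Of 57381 entries, 187 controls were left out. Groups came from the sample titles and sampling hours from the study's sampling table. Genes were named through the platform annotation (22436 probe sets with 1 gene, 95 with several, 34663 with none). The number of arrays limits the precision.

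The constant 32 was added to each signal before log2. Those whose signal averaged 100 or more in both leaves were tested with limma 3.58.1 in R 4.3.3, with a mean for each of the 20 leaf and time point groups over all 40 arrays and Benjamini-Hochberg adjustment over 21726 probe sets. A probe set was called at an adjusted p under 0.05. Selection and figures used Python 3.11.15, pandas 2.3.3 and matplotlib 3.10.9. The fit was tested on simulated data. Same-numbered arrays deviated together in all 45 pairs of time points in each leaf (correlations 0.2275 to 0.5029 in flag leaves and 0.3296 to 0.6041 in seedling leaves), so the fit with the replicate number as a block is given beside results it changed. For the level difference between the leaves, neither fit takes in the spread between replicate series, so its p values are too small.

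The genes named are the members with a named function, for each test and direction up to 3 called members with the largest difference among those paired with a gene, and 3 on each side of the limit; others are named as examples after their values were seen. The members and gene lists were chosen with earlier results of these data known, and the 32 h against 8 h tests after the data were seen. Alternatives were other constants, other signal limits, quantile normalization, the replicate block, and leaving out arrays or replicates.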

Additional observations from a re-analysis of the deposited data

Results flagged for a closer look

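The night-minus-day change differed between flag and seedling leaves by the test of the difference itself, at hours that also chose the members. The night-minus-day change was larger in flag leaves for 77 members and larger in seedling leaves for 5 (limma, adjusted p under 0.05). These were 51.3% and 3.33% of the members, against 18.1% and 16% of all 21726 probe sets. In the other 4126 night-high probe sets the shares were 25.6% and 2.06%. The rule that chose the members set a limit on the smaller range only and left the larger one free. The difference, flag minus seedling, was 4.918 for LOC4324556, 4.5733 for LOC4344389 and 4.3326 for LOC4336235, and -1.0691 for LOC4326077 and -0.7266 for LOC4334495, on the log2(signal + 32) scale. Over all clock hours, LOC4326077 and LOC4334495 still had the larger range in flag leaves.

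The difference of 32 h minus 8 h also differed between the leaves. It was larger in flag leaves for 41 members and larger in seedling leaves for 2. These were 27.3% and 1.33% of the members, against 2.92% and 2.82% of all 21726 probe sets. Flag minus seedling, this difference was 4.4019 for LOC4337987, 4.0803 for LOC4330144 and 3.8191 for LOC4336779, and -3.1315 for LOC4342317 and -2.8348 for LOC4352852. The flag leaf replicates of LOC4337987 and LOC4342317 had Cr of 0.495 and 0.259. The calls for LOC4342317 and LOC4352852 were lost when any 1 of 6 and 7 of the 8 arrays was left out.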

How the results depend on the processing

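Of 150 members, 144 and 142 were chosen again with constants of 16 and 64, 123 and 116 with signal limits of 50 and 200, 134 after quantile normalization, 126 with the seedling 44 h arrays averaged in, 116 and 110 without replicate 1 and 2, and 144 without the seedling 40 h arrays. With no signal limit, 0 members were called lower on day 2 in flag leaves, 3 had the larger night change in seedling leaves and 0 the larger 32 h minus 8 h difference there. With a limit of 200, where 116 members were tested, 0 were lower on day 2 and 1 lower at 32 h in seedling leaves. Quantile normalization gave 8 higher at 32 h in seedling leaves.

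With the replicate number as a block, 7 were lower on day 2 in flag leaves, 8 higher and 6 lower on day 2 in seedling leaves, 17 higher and 7 lower at 32 h in seedling leaves, and 6 had the larger 32 h minus 8 h difference in seedling leaves. No other count of calls moved by over 1.5 times. Without the seedling 40 h arrays, 6 members were higher and 5 lower on day 2 in seedling leaves. Without the 8 and 32 h arrays, 2 were higher on day 2 in flag leaves and 0 in seedling leaves, and the flag leaf difference turned to -0.0441 for CONSTANS-LIKE 11, -0.1924 for LOC4330144 and -0.1124 for LOC4326490.

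Leaving out 1 replicate of a leaf (the lone array of each time point was assumed to vary like the others) or 1 array gave 0 to 6 higher and 0 to 15 lower on day 2 in seedling leaves, the 15 without seedling 40 h replicate 2. The ranges were 9 to 22 higher and 21 to 43 lower at 44 h, 1 to 11 with the larger night change in seedling leaves, 0 to 1 higher and 0 to 1 lower at 32 h in seedling leaves, 12 to 51 and 0 to 10 with the larger 32 h minus 8 h difference in flag and in seedling leaves, 0 to 11 lower on day 2 in flag leaves and 0 to 4 lower at 32 h there. The causes were not tested.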
